A study of Mus musculus with 16 samples.

Results

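The genes described here are 9 transcription factors that set the identity of dendritic cells: Irf8, Batf3, Id2, Nfil3, Zbtb46, Bcl6, Irf4, Zeb2 and Spi1. They were taken by name, with earlier results of these data known, and each had a single probe set, so they are 9 of the 19938 genes measured. Readings came from 16 Affymetrix Mouse Gene 1.0 ST arrays of type 1 conventional dendritic cells (cDC1), the dendritic cells specialised in presenting engulfed antigen to CD8 T cells. The cells had been sorted from inguinal lymph nodes of C57BL/6 mice, 6 days after a tumour of a kind that the host rejects was placed in the flank. There were 4 groups of 4 arrays: KO and Het cells of the draining node, then KO and Het cells of the other node, named by genotype and node below. KO mice lacked both functional copies of Wdfy4, which encodes a BEACH-domain protein that cDC1 need for cross-presentation, and Het mice were heterozygous. There were no Wdfy4 wild-type cells and no cells of tumour-free mice among these arrays, so every group shares the tumour and at least 1 altered Wdfy4 allele. The sources used here do not say which part of Wdfy4 is altered, whether nodes were pooled, or whether the 4 samples of a group are separate animals. Nor do they say whether draining and non-draining samples came from the same mice, and the main fit treats them as independent. The p-values thus measure only the spread among these samples, and that spread may be technical.

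These factors act in a known order in mouse dendritic cells. PU.1, the product of Spi1, opens the myeloid programme, and IRF8 commits progenitors to the cDC1 lineage. NFIL3 represses Zeb2, ZEB2 represses Id2, and the loss of ZEB2 lets ID2 restrain the E proteins that drive plasmacytoid dendritic cells. BATF3 then sustains Irf8 transcription in committed cDC1, whereas IRF4 supports the cDC2 lineage and the migration of dendritic cells, and ZBTB46 and BCL6 mark conventional dendritic cells. In the RefSeq annotation of GRCm38.p6 the genes of the cDC1 circuit lie as follows: Irf8 at chr8:120736358-120756694 (probe set 10576034), Batf3 at chr1:191098414-191108943 (probe set 10352717), Id2 at chr12:25093799-25096092 (probe set 10399691) and Nfil3 at chr13:52967209-52982878 (probe set 10409278). The others are Zbtb46 at chr2:181371009-181493262 (probe set 10490682), Bcl6 at chr16:23965050-23988866 (probe set 10438738), Irf4 at chr13:30749233-30766981 (probe set 10404389), Zeb2 at chr2:44983512-45117442 (probe set 10482448) and Spi1 at chr2:91082374-91115759 (probe set 10473809). These spans are those of the whole genes, exons and introns included.

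Of these factors, 3 had every reading of arrays 3 and 4 above every reading of arrays 1 and 2 within each of the 4 groups: Batf3, Zbtb46 and Zeb2. Over all genes 2.38% showed this pattern. Their RefSeq promoter sequence is shown because these 3 share it: the 250 bases before an annotated start on GRCm38.p6, read 5′ to 3′ on the gene's strand, with capitals marking the letters of a searched motif. RefSeq windows were matched for 8 of the 9 genes, 13 windows in all, and Spi1 is named only. The Batf3 window is chr1:191098164-191098413 on the plus strand. The Zbtb46 window is chr2:181424389-181424638 on the minus strand, at a start that lies inside the annotated span of the gene. The Zeb2 window is chr2:45110278-45110527 on the minus strand, at a start that also lies inside the annotated span of its gene. It is 1 of 4 Zeb2 windows and is shown as the one with the most matches, at 3. The window at chr2:45117443-45117692, before the annotated span, held 0. The overlapping windows at chr2:45113280-45113529 and chr2:45113254-45113503 held 1 each, at the same bases of the genome.
Batf3: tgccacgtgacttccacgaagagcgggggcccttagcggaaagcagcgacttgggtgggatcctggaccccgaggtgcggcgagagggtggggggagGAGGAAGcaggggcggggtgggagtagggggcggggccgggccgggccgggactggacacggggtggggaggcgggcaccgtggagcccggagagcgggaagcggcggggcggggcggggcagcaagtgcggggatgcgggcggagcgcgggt
Zbtb46: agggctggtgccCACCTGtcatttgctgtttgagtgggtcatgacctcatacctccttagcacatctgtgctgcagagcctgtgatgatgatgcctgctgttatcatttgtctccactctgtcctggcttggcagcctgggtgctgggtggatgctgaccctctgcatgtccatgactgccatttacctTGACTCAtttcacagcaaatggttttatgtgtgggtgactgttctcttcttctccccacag
Zeb2: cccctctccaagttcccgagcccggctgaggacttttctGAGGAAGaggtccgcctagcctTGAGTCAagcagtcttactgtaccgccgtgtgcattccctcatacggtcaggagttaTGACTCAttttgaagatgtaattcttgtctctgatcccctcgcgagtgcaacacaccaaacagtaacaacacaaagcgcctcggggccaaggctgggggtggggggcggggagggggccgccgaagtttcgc

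The search covered both strands for 7 sets of letters. These were the IRF pair (GAAA, any 2 bases, GAAA), the ETS-IRF composite (GGAA, any 2 bases, GAAA), the AP-1 element TGANTCA, the PU.1 core GAGGAAG, the NFIL3 element TTANGTAA, the ZEB box CACCTG and the BCL6 element TTCCTNGAA. The Batf3 window held 1 PU.1 core at position -153 from the start and no other match. The Zbtb46 window held an AP-1 element at -61 and a ZEB box at -238. The Zeb2 window held a PU.1 core at -211 and AP-1 elements at -189 and -132, the letters that BATF3 and its JUN partners recognise. AP-1 letters occurred in 6.73% of all 32536 RefSeq windows of this length, PU.1 letters in 10.7% and ZEB letters in 17.3%. IRF pair letters occurred in 2.98%, ETS-IRF letters in 2.31%, NFIL3 letters in 2.03% and BCL6 letters in 1.32%. A match is a run of letters and says nothing of binding. Among the remaining windows, Bcl6 held ETS-IRF letters at -28 and BCL6 letters at -168 of the same window, and PU.1 letters at -191 of its other window. An Irf8 window held ZEB letters at -205. The overlapping Zeb2 windows held the same PU.1 letters, at -16 of chr2:45113280-45113529 and at -42 of chr2:45113254-45113503. No letters of any searched motif were in the windows of Irf4, Id2 and Nfil3.

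Readings are given as intensities on the linear scale, after normalization with RMA by the submitters, and differences as log2(intensity + 1), so that a difference of 1 is a doubling. The number of arrays sets the precision: the median standard error over all genes was 0.12 for a difference between 2 groups. Array medians lay between 38.6 and 40.8. The first principal component of deviations from the group means carried 35.3% of their variance. Along it KO draining array 2 stood at -38.2 and the other arrays between -21.2 and 20.5. Position on it largely followed array number. Every array numbered 3 or 4 was positive, from 4.66 to 20.5. Arrays numbered 1 or 2 were negative, from -38.2 to -4.03, except KO draining array 1 at 1.87. Wdfy4 itself read 2252 ± 411 in KO draining and 2957 ± 433 in Het draining cells, and 2375 ± 557 in KO non-draining and 2804 ± 549 in Het non-draining cells (SD, n = 4 each). Its log2 difference over both nodes was -0.32 ± 0.12 (limma adjusted p = 1.00), and since the altered part of the gene is not given, the reading neither checks nor contradicts the labels. The 14 measured cDC1 markers read between 149 (the lowest reading of Snx22) and 5042 (the highest of Ppt1). Among them Xcr1, the chemokine receptor of cDC1, read 1240 to 2495 and Clec9a, a receptor for dead cells, 1031 to 1777. Of the 7 genes of migratory dendritic cells, Ccr7 read 3354 to 5731 and Cd207 134 to 284. The 10 cDC2 genes read between 6.39 (Clec4a4) and 295 (Cd7), with 20.9 to 33.8 for Itgam, and of 8 T cell genes Cd4 read 46.5 to 80.3 and Cd3g 155 to 889. No reading in the whole table was below 3.327, so a reading above 0 does not show that a marker was detected. The table has no detection calls, and readings of different probe sets cannot be ranked against each other.

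**Figure D1:**
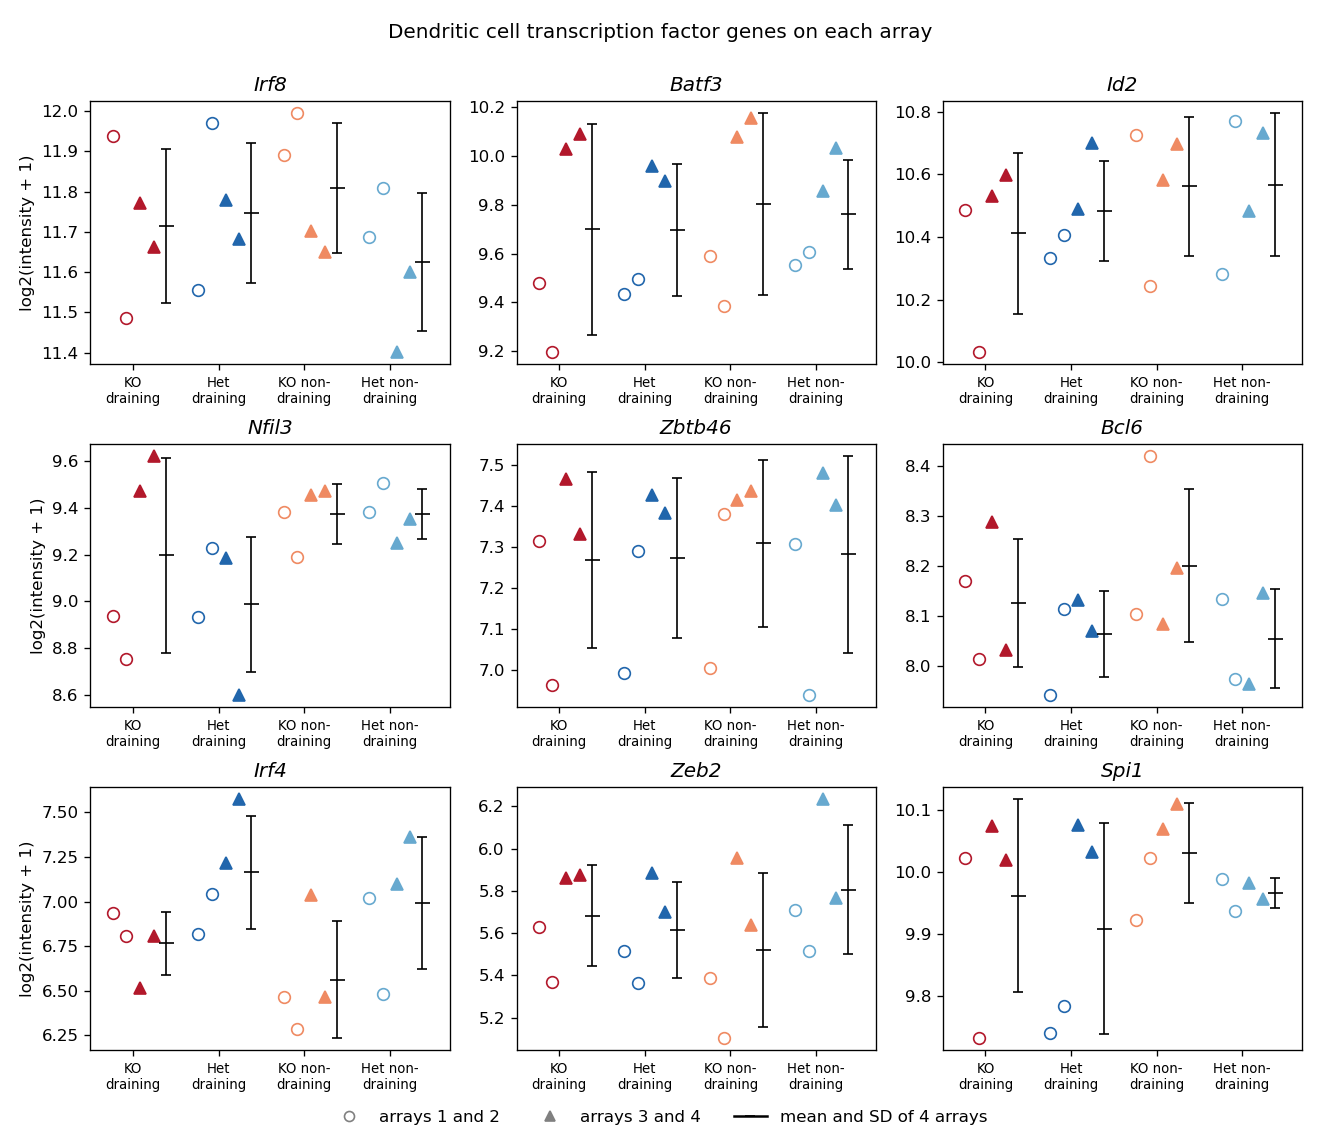
Log2(intensity + 1) of each lineage factor on every array, in the order of array numbers 1 to 4 within a group, with KO to the left of Het for each node. Open circles are arrays 1 and 2, triangles are arrays 3 and 4, and bars give the mean and SD of 4 arrays; the triangles of Batf3, Zbtb46 and Zeb2 lie above the circles in all 4 groups.

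None of the 9 factors passed the test between genotypes or between nodes. limma with Benjamini-Hochberg adjustment over 19938 genes called 0 genes, or 0% of those tested, in each of 7 comparisons: KO against Het in each node and over both nodes, draining against non-draining in each genotype and over both genotypes, and the interaction of genotype and node. At an unadjusted p under 0.05 there were 4 of the 63 member results, 2 for Irf4 and 2 for Nfil3. The share of all genes under that unadjusted threshold in KO against Het was 3.39% for the draining node, 2.48% for the other node and 3.49% over both. For draining against non-draining it was 2.11% in KO, 3.29% in Het and 3.06% over both genotypes, and for the interaction 2.32%. The smallest adjusted p of any gene in these 7 comparisons was 0.103, for KO against Het over both nodes. With the 4 group means of each gene set in order, all 27 gaps between neighbouring means were smaller than the larger of the SDs on either side. This does not cover the gap from the highest to the lowest mean, and the SDs include the spread among array numbers. For Irf4 those means were 145 ± 33.1 in Het draining and 95.4 ± 23.9 in KO non-draining cells (SD, n = 4 each).

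Irf8 encodes the factor that cDC1 need to form and to survive, and its readings did not separate the groups. In the draining node it read 3926, 2866, 3498 and 3240 on KO arrays 1 to 4, and 3009, 4013, 3513 and 3287 on Het arrays 1 to 4. In the non-draining node the readings were 3799, 4082, 3329 and 3213 on KO arrays, and 3295, 3586, 2703 and 3104 on Het arrays. Both pairs of groups overlapped, and the lowest and the highest reading differed by 0.59 on the log2 scale. The difference between KO and Het cells was -0.03 ± 0.12 in the draining node (SE; 95% interval -0.29 to 0.23) and 0.19 ± 0.12 in the non-draining node (-0.07 to 0.44). The largest mean was that of KO cells of the non-draining node, 3605 ± 406, and the lowest that of Het cells of the same node, 3172 ± 370 (SD, n = 4 each).

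Batf3 encodes the AP-1 family partner of IRF8 in cDC1, and its group means were among the closest. KO cells averaged 858 ± 247 and Het cells 840 ± 156 in the draining node, and KO cells 914 ± 230 and Het cells 875 ± 137 in the non-draining node. The log2 difference between KO and Het cells was 0.00 ± 0.21 (95% interval -0.45 to 0.45) for the draining node. For the other node it was 0.04 ± 0.21 (-0.41 to 0.49). The spread within each group was wide, and the 4 arrays of a group fell into a lower and a higher pair.

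Id2 encodes the inhibitor of E proteins that conventional dendritic cells keep on. It read from 1046 to 1548 in KO draining and from 1290 to 1664 in Het draining cells, and from 1212 to 1694 in KO non-draining and from 1245 to 1746 in Het non-draining cells. The groups overlapped throughout, and the KO minus Het difference over both nodes was -0.04 ± 0.10 (95% interval -0.26 to 0.18).

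Nfil3, whose product represses Zeb2 in dendritic cell progenitors, gave the only pair of groups without overlap among the 36 comparisons of 2 groups. Het cells of the draining node read 488, 599, 581 and 387, against 666, 726, 608 and 653 in Het cells of the non-draining node. Every draining reading was below every non-draining one, a pattern that 0.998% of all genes showed in this direction and 2.4% in either. For KO against Het the groups did not overlap in 1.58% of all genes in the draining node and 2.39% in the other node, and for the nodes of KO cells in 1.44%, none of them a factor described here. The log2 difference was -0.39 ± 0.17 (95% interval -0.75 to -0.02) with an unadjusted p of 0.0396 and a limma adjusted p of 1.00, so it did not pass the test. KO cells gave 489, 431, 710 and 786 in the draining node, against 665, 584, 701 and 708 in the non-draining node, and these overlapped, with a difference of -0.18 ± 0.17. The interaction was 0.21 ± 0.24 (95% interval -0.31 to 0.73), so it did not show a difference between the genotypes in their node difference. Over both genotypes the difference between nodes was -0.28 ± 0.12 (unadjusted p = 0.0343; limma adjusted p = 0.998).

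The node difference of Nfil3 in Het cells was -0.41 with arrays 3 and 4 alone and -0.36 with arrays 1 and 2 alone. The draining node comparison of genotypes was not as even: KO minus Het was 0.21 ± 0.17 over all arrays, 0.66 on arrays 3 and 4 taken alone and -0.24 on arrays 1 and 2 taken alone. Marker lists also leaned one way between the nodes in Het cells, with 0 genes called. All 8 measured T cell genes were lower by sign in the draining node, with a median of -0.44 against 0.01 over all genes, and the mean log2 level of the list was 6.64 to 7.46 in draining and 6.90 to 7.72 in non-draining Het cells. Markers of cDC2 were lower by sign in 9 of 10 genes (median -0.22), with a level of 5.22 to 5.89 in draining and 5.61 to 6.08 in non-draining Het cells. Markers of cDC1 were higher by sign in 11 of 14 (median 0.13), with a level of 9.72 to 10.09 in draining and 9.48 to 10.16 in non-draining Het cells. Without detection calls it is not known which of these markers were above background, and their part in the Nfil3 readings was not tested.

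Irf4 had the smallest p of the 9 factors between genotypes. In the draining node it read 121, 111, 90.5 and 111 on KO arrays, against 112, 131, 148 and 190 on Het arrays. In the non-draining node it read 87.3, 76.8, 130 and 87.1 on KO arrays, against 129, 88.4, 136 and 163 on Het arrays. Most KO readings were below most Het readings, but KO draining array 1 and KO non-draining array 3 lay inside the Het range, so the groups overlapped. The log2 difference was -0.40 ± 0.20 (95% interval -0.81 to 0.02) in the draining node and -0.43 ± 0.20 (-0.84 to -0.01; unadjusted p = 0.0435) in the non-draining node. Over both nodes it was -0.41 ± 0.14 (95% interval -0.71 to -0.12; unadjusted p = 0.00866). That p ranked 122 among 19938 genes, and its limma adjusted p was 1.00. The interaction was 0.03 ± 0.28, the node difference 0.19 ± 0.14, and both Het means were above both KO means.

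The genotype difference of Irf4 over both nodes was -0.61 on arrays 3 and 4 taken alone and -0.22 on arrays 1 and 2 taken alone (limma adjusted p = 0.224 within arrays 3 and 4). In the draining node it was -0.73 on arrays 3 and 4 taken alone and -0.06 on arrays 1 and 2 taken alone. In the non-draining node it was -0.48 on arrays 3 and 4 taken alone and -0.38 on arrays 1 and 2 taken alone. Leaving out any 1 array kept the value over both nodes between -0.50 and -0.34.

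Between the same genotypes 0 genes of any list passed the test, but some lists leaned one way by sign. All 14 measured immediate early and digestion genes, which respond within minutes to cell handling and stimulation, were higher by sign in KO cells, with a median of 0.29 against 0.00 over all genes. Their mean log2 level was 10.06 to 10.35 in KO draining and 9.63 to 10.12 in Het draining cells, and 10.06 to 10.39 in KO non-draining and 9.75 to 10.04 in Het non-draining cells. Markers of B cells were higher by sign in KO cells for 9 of 9 genes, with a median of 0.36. The B cell level was 5.71 to 6.05 in KO draining and 5.45 to 6.29 in Het draining cells, and 5.79 to 6.46 in KO non-draining and 5.39 to 6.26 in Het non-draining cells. Markers of cDC1 were higher by sign in KO cells for 14 of 14 genes over both nodes, with a median of 0.17. They were 14 of 14 in the non-draining node (median 0.25) and 8 of 14 in the draining node (median 0.03). The cDC1 level was 9.68 to 10.06 in KO draining and 9.72 to 10.09 in Het draining cells, and 9.82 to 10.31 in KO non-draining and 9.48 to 10.16 in Het non-draining cells. Markers of T cells went opposite ways by node, higher by sign in 8 of 8 genes in the draining node (median 0.30) and in 0 of 8 in the non-draining node (median -0.41). The T cell level was 6.93 to 7.76 in KO draining and 6.64 to 7.46 in Het draining cells, and 6.36 to 7.55 in KO non-draining and 6.90 to 7.72 in Het non-draining cells. Genes of migratory dendritic cells were lower by sign in KO cells for 5 of 7 genes over both nodes, with a median of -0.04. In the non-draining node 6 of 7 were lower (median -0.14), and in the draining node 3 of 7 (median 0.00). The migratory level was 9.92 to 10.83 in KO draining and 10.26 to 10.74 in Het draining cells. For the non-draining node it was 10.26 to 10.77 in KO and 10.39 to 10.76 in Het cells. Markers of cDC2, the cells that IRF4 supports, split into 5 higher and 5 lower, with a median of 0.00. Their level was 5.42 to 5.82 in KO draining and 5.22 to 5.89 in Het draining cells, and 5.52 to 5.94 in KO non-draining and 5.61 to 6.08 in Het non-draining cells. Which of these markers were above background is not known, and the part of any of these lists in the Irf4 readings was not tested. In sorted cells read in bulk, fewer cells of a type and less RNA per cell cannot be told apart.

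Zeb2 encodes the repressor that keeps progenitors away from the cDC1 lineage, and its readings were low, from 33.4 to 74.2. The table has no detection calls, so it is not known which of these were above background. KO cells of the draining node read 48.4, 40.3, 57.2 and 57.7, against 44.7, 40.2, 58.0 and 50.9 in Het cells. In the non-draining node KO cells read 40.8, 33.4, 61.0 and 48.8, against 51.3, 44.7, 74.2 and 53.3 in Het cells. The groups overlapped in both nodes, while in each group both readings of arrays 3 and 4 were above both of arrays 1 and 2. The KO minus Het difference was 0.07 ± 0.19 (95% interval -0.32 to 0.46) in the draining node and -0.28 ± 0.19 (-0.68 to 0.11) in the non-draining node, with an interaction of 0.35 ± 0.26 (-0.20 to 0.91).

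The remaining factors mark conventional or myeloid cells broadly, and their group means were close. Zbtb46, a zinc finger factor of conventional dendritic cells, read 158, 124, 176 and 160 in KO and 126, 155, 171 and 166 in Het draining cells. Its non-draining readings were 128, 166, 170 and 172 in KO and 157, 122, 177 and 168 in Het cells. Its KO minus Het difference over both nodes was 0.01 ± 0.10 (95% interval -0.20 to 0.23), and all groups overlapped. Bcl6, a repressor of conventional dendritic cells that is also central to germinal centre B cells, ranged from 258 to 312 in KO draining and from 245 to 280 in Het draining cells, and from 271 to 341 in KO non-draining and from 249 to 282 in Het non-draining cells. Its difference over both nodes was 0.10 ± 0.07 (-0.04 to 0.25). Spi1 ranged from 849 to 1076 in KO draining and from 854 to 1078 in Het draining cells, and from 969 to 1103 in KO non-draining and from 979 to 1015 in Het non-draining cells, a difference of 0.06 ± 0.07 (-0.09 to 0.20).

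**Figure D2:**
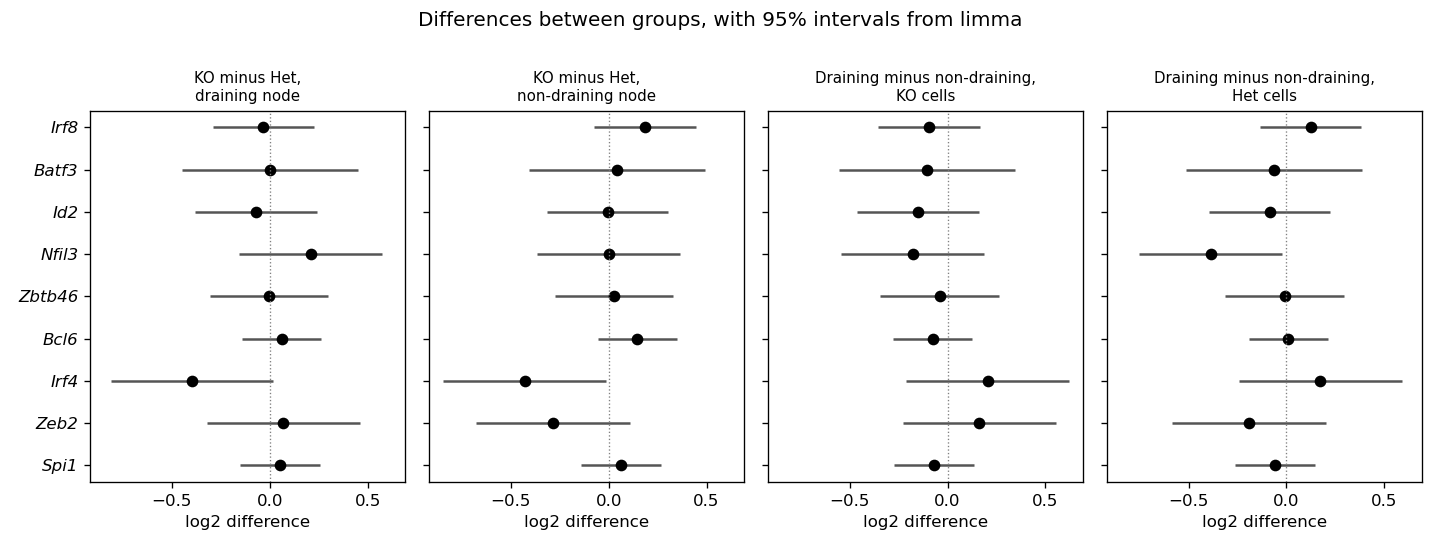
Log2 differences of the 9 factors between groups with 95% intervals from limma, for KO minus Het and for draining minus non-draining. Irf4 lies left of 0 for KO minus Het in both nodes, at -0.40 and -0.43, and Nfil3 left of 0 for draining minus non-draining in Het cells, at -0.39; no difference passed the adjusted threshold.

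The sample titles number the arrays of each group 1 to 4, and the sources used here do not say what the number stands for. The wide spread of Batf3 within groups followed this number. Batf3 read 1045 and 1089 on KO draining arrays 3 and 4, against 713 and 585 on KO draining arrays 1 and 2. On Het draining arrays 3 and 4 it read 995 and 953, against 691 and 721 on arrays 1 and 2. For KO non-draining cells the readings were 1079 and 1138 on arrays 3 and 4, against 771 and 667 on arrays 1 and 2. Het non-draining arrays 3 and 4 gave 925 and 1046, against 750 and 777 on arrays 1 and 2. All 8 readings of arrays 3 and 4, 925 to 1138, were above all 8 of arrays 1 and 2, 585 to 777, which 1.05% of all genes showed in this direction. The means were 1034 ± 72.0 on arrays 3 and 4 and 710 ± 62.9 on arrays 1 and 2 (SD, n = 8 each), a ratio of 1.46.

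A fit with group and array number put the Batf3 difference between arrays 3 and 4 and arrays 1 and 2 at 0.54 ± 0.07 (95% interval 0.40 to 0.69; limma adjusted p = 0.00085). Zeb2 was higher on arrays 3 and 4 as well, by 0.42 ± 0.06 (0.28 to 0.55; limma adjusted p = 0.0018). Its mean was 57.7 ± 7.83 on arrays 3 and 4 and 43.0 ± 5.57 on arrays 1 and 2 (SD, n = 8 each), a ratio of 1.33. These were 2 of the 9 factors, both higher, where 11.1% of all genes were called and 7.2% were called higher. This split of the arrays was chosen with earlier results of these data known. A limma F test over all 4 numbers does not use it, and it gave adjusted p values of 0.0062 for Batf3 and 0.0074 for Zeb2, with 3.36% of all genes called.

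Within single groups the Batf3 difference was 0.72 in KO draining and 0.46 in Het draining cells, and 0.63 in KO non-draining and 0.36 in Het non-draining cells. For Zeb2 it was 0.37 in KO draining and 0.35 in Het draining cells, and 0.55 in KO non-draining and 0.39 in Het non-draining cells. Zbtb46 also had both readings of arrays 3 and 4 above both readings of arrays 1 and 2 in all 4 groups. Its means were 170 ± 5.53 on arrays 3 and 4 and 142 ± 18.6 on arrays 1 and 2 (SD, n = 8 each). Its difference of 0.27 ± 0.08 (95% interval 0.09 to 0.44) missed the threshold at a limma adjusted p of 0.0504. Without Het draining array 2, KO draining array 1, Het non-draining array 1 or KO non-draining array 2 it passed, at adjusted p values of 0.0280 to 0.0473.

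No other factor passed. Irf4 differed by 0.28 ± 0.13 (limma adjusted p = 0.163), with KO draining cells going the other way at -0.21. Id2 differed by 0.19 ± 0.09 (adjusted p = 0.193), Spi1 by 0.15 ± 0.06 (adjusted p = 0.140) and Nfil3 by 0.14 ± 0.13 (adjusted p = 0.494). The Nfil3 values split by genotype, with 0.70 and 0.18 in KO cells and -0.19 and -0.14 in Het cells of the draining and the non-draining node, a contrast that was not tested. Bcl6 was level at 0.01 ± 0.07 (adjusted p = 0.969). Irf8, whose transcription BATF3 sustains in committed cDC1, did not share the pattern: it differed by -0.14 ± 0.09 (95% interval -0.32 to 0.05; adjusted p = 0.313), with means of 3236 ± 256 on arrays 3 and 4 and 3572 ± 466 on arrays 1 and 2 (SD, n = 8 each).

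Leaving out any 1 array left Batf3 between 0.50 and 0.58 and Zeb2 between 0.39 and 0.45, past the threshold each time. Without KO draining array 2, the array that stood apart, Batf3 differed by 0.50 and Zeb2 by 0.42, and 1708 genes were called instead of 2209. The number of genes called fell to 1282 without Het draining array 3, 1281 without KO draining array 4, 1402 without Het non-draining array 4 and 1340 without KO non-draining array 4.

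Genes of other lists differed between the same arrays. All 14 measured cDC1 markers were lower by sign on arrays 3 and 4, and 7 of them passed the test: Tlr3, a receptor for double-stranded RNA, by -0.81, Xcr1 by -0.44, Cadm1 by -0.44, Ifi205 by -0.43, Ppt1 by -0.40, Rab7b by -0.29 and Naaa by -0.28. The list median was -0.31 against -0.03 over all genes, and 3.88% of all genes were called lower. Its mean log2 level was 9.48 to 10.06 on arrays 3 and 4 and 9.85 to 10.31 on arrays 1 and 2. Markers of T cells were higher by sign in 8 of 8 genes, with 4 called where 7.2% of all genes were called higher, among them Cd3d at 1.00 and Cd3g at 0.92, both parts of the T cell receptor complex. The T cell list had a median of 0.47 and a level of 6.84 to 7.76 on arrays 3 and 4 and 6.36 to 7.72 on arrays 1 and 2. Genes of migratory dendritic cells were higher by sign in 6 of 7, with 3 called: Ccl17 at 0.85, Socs2 at 0.46 and Ccl22 at 0.42. Their level was 10.64 to 10.80 on arrays 3 and 4 and 9.92 to 10.83 on arrays 1 and 2. Nkg7, a gene of cytotoxic granules, was higher by 1.25, the only NK cell marker of 7 that was called. Among 6 plasmacytoid dendritic cell markers Ly6d was higher at 0.68 and Ccr9 lower at -0.58, and among 14 immediate early and digestion genes Fosb (-0.49), Egr1 (-0.42) and Egr2 (-0.33) were lower. No marker of cDC2 (10 genes, median 0.17), B cells (9 genes, 0.18) or monocytes and macrophages (9 genes, -0.03) passed limma's test, with 5, 2 and 0 of them at an unadjusted p under 0.05. Which of these markers were above background is not known, and the part of these cells in the Batf3 and Zeb2 readings was not tested.

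**Figure D3:**
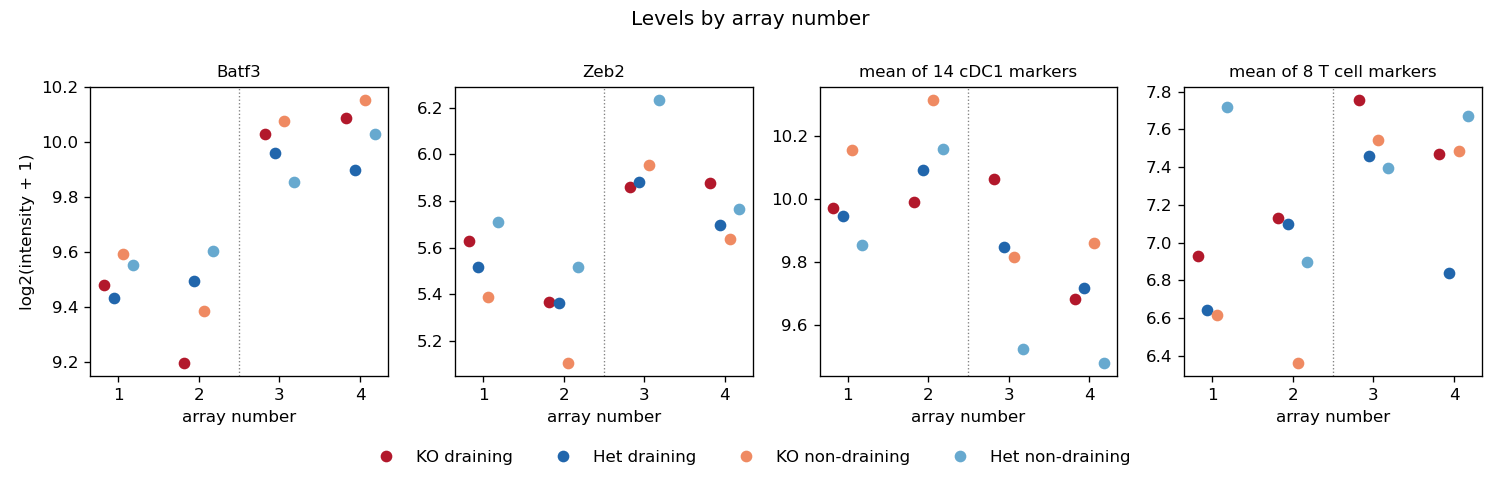
Log2(intensity + 1) of Batf3 and Zeb2, and the mean of 14 cDC1 markers and of 8 T cell markers, against array number 1 to 4, with 1 point for each array, coloured by group. All Batf3 points of arrays 3 and 4 lie above those of arrays 1 and 2, while the cDC1 mean runs from 9.48 to 10.06 on arrays 3 and 4 and from 9.85 to 10.31 on arrays 1 and 2.

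**Figure D4:**
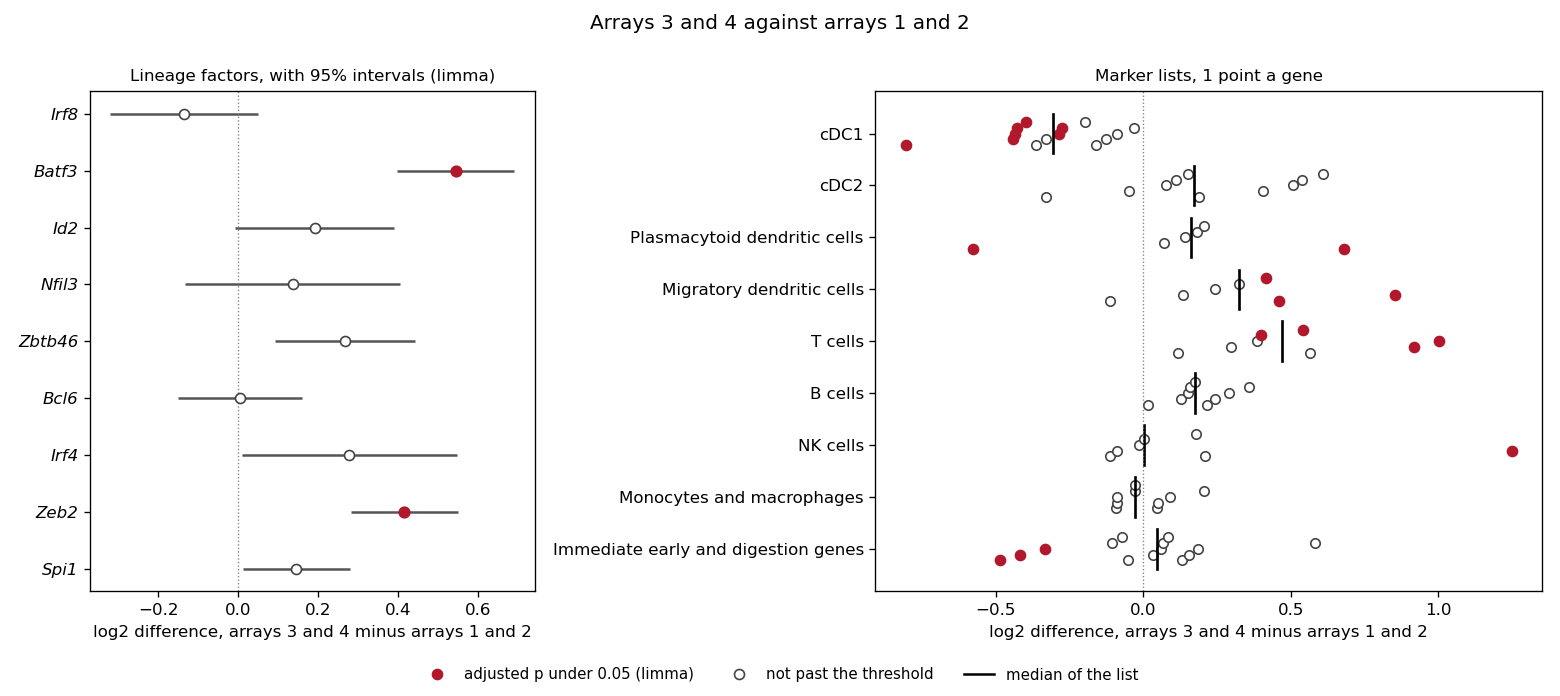
Log2 differences between arrays 3 and 4 and arrays 1 and 2 for the 9 factors with 95% intervals (left) and for the genes of each marker list (right), where a filled point has a limma adjusted p under 0.05 and a bar is the list median. Batf3 and Zeb2 are filled at 0.54 and 0.42, the cDC1 genes lie at or below 0, and the T cell genes lie above it.

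Partners and relatives of the 9 factors were described from lists of genes with related roles, none of which had a gene past the test in any comparison of groups. Between KO and Het cells over both nodes, 7 of 9 AP-1 family genes were higher by sign, with a median of 0.19. The list held Batf and Batf2, relatives of Batf3, and genes of the Jun and Fos families. Jun, Junb, Fos and Fosb of this list were also in the list of immediate early and digestion genes above, so the leanings of these lists are not separate results. Jun, whose product pairs with BATF3 on DNA, differed by 0.50 ± 0.10 (unadjusted p = 0.000125, limma adjusted p = 0.821). Its AP-1 relative Jund differed by 0.19 ± 0.05 (limma adjusted p = 1.00). Among 34 other factors of dendritic cells, 27 were higher by sign, with a median of 0.04. Klf2 differed by 0.38 ± 0.09 and Klf4, a factor for part of the cDC2 lineage, by 0.36 ± 0.14, and both had an adjusted p of 1.00. Relatives of IRF8 and IRF4 gave 5 of 6 higher by sign with a median of 0.10, ETS factors 6 of 10 with 0.05, E and Id proteins 4 of 8 with 0.02, and growth factor inputs 5 of 9 with 0.04. The median over all genes was 0.00.

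By array number, some relatives passed the test, beside 7.2% of all genes called higher and 3.88% called lower. In the IRF family 2 of 6 were higher, Irf1, an interferon-induced factor, by 0.53 ± 0.12 and Irf3 by 0.41 ± 0.09. Among 10 ETS factors Spib and Spic, the closest relatives of Spi1, were higher by 0.41 ± 0.09 and 0.46 ± 0.11, and Etv6 was lower at -0.28. Of 34 other dendritic cell factors, Myc (0.50) and Myb (0.29) were higher. The 6 that were lower were Notch2 (-0.49), Mycl (-0.39), Cebpa (-0.38), Rel (-0.32), Mef2c (-0.31) and Nr4a3 (-0.30), and Mycl is the MYC relative that cDC1 express. Of 9 AP-1 family genes, Fosb was lower at -0.49 and none was higher. Among 8 E and Id proteins Tal1 was lower at -0.28. Calls of 1 in 9 and 1 in 8 are near the 11.1% of all genes called in either direction. Growth factor inputs had Il3ra higher at 0.33 and 2 of 9 lower, Kit at -0.51 and Ifngr1 at -0.34. List medians were -0.04 for the IRF family, 0.03 for the ETS factors and 0.00 for the other dendritic cell factors. The AP-1 family genes had a median of -0.04, and all genes -0.03.

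The genes whose log2 readings ran most like each factor over the 16 arrays were found by Pearson's r, as a description with no test. All of these points share arrays, and for Batf3, Zeb2 and Zbtb46 they also share the step between array numbers. Batf3 was most like Trappc4 (r = 0.97), a subunit of a vesicle tethering complex, Elob (0.96) and Psenen (0.96). Within the 8 arrays numbered 3 and 4 these fell to 0.71, 0.82 and 0.54, and within the 8 numbered 1 and 2 they were 0.94, 0.76 and 0.99. Zeb2 was most like Card19 (0.87), Thy1 (0.86), a surface protein of T cells, and Uckl1 (0.86). Thy1 had 0.56 within arrays 3 and 4 and 0.73 within arrays 1 and 2. Zbtb46 was most like Lzts2 (0.91), Sharpin (0.90) and Nisch (0.90), with 0.19, 0.28 and -0.19 within arrays 3 and 4.

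Among the other factors, Irf8 was most like Plk2 (r = 0.87), Nsun2 (0.86) and Ctbp2 (0.85), and Ctbp2, a corepressor, had 0.90 within arrays 3 and 4 and 0.95 within arrays 1 and 2. Nfil3 was most like Ramp1 (0.90), Hsd17b10 (0.90) and Ccdc107 (0.89), and Ramp1 had 0.91 within arrays 3 and 4 and 0.89 within arrays 1 and 2. Irf4 was most like Zw10 (0.86), Vcp (0.85) and Mtf1 (0.83), with 0.75, 0.76 and 0.73 once group means were taken out. Id2 was most like Ubqln2 (0.88), Ube2d2a (0.88) and Prpf3 (0.87). Within arrays 3 and 4 these had 0.93, 0.37 and 0.29, and within arrays 1 and 2 they had 0.84, 0.91 and 0.89, so that 2 of the 3 were much less like Id2 on arrays 3 and 4. Bcl6 was most like Sipa1 (0.85), Tesk1 (0.82) and Pik3r6 (0.79), with 0.76, 0.61 and 0.75 on arrays 3 and 4 and 0.92, 0.93 and 0.82 on arrays 1 and 2. Spi1 was most like Nfkbil1 (0.92), Gemin7 (0.88) and Morn1 (0.86). The first 2 held at 0.81 and 0.86 on arrays 3 and 4 and at 0.87 and 0.79 on arrays 1 and 2, whereas Morn1 had -0.17 on arrays 3 and 4 and 0.88 on arrays 1 and 2.

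Among the factors themselves, r over 16 arrays was highest for Zbtb46 and Spi1, at 0.73. Within arrays 3 and 4 these had 0.17, and within arrays 1 and 2 they had 0.56. Batf3 and Spi1 had 0.72 over all arrays and 0.47 within each array set. Batf3 and Zeb2 also had r = 0.72 over 16 arrays. With only arrays 3 and 4 they ran opposite, at -0.52, and with only arrays 1 and 2 they had 0.41. Irf8 and Bcl6 stood at 0.60 over all arrays, and at 0.67 within arrays 3 and 4 and 0.67 within arrays 1 and 2. Batf3 and Nfil3 had 0.50 over all arrays, with 0.70 within arrays 3 and 4 and 0.84 within arrays 1 and 2. Batf3 and Id2 had 0.68 over all arrays, with 0.38 within arrays 3 and 4 and 0.86 within arrays 1 and 2. Batf3 and Zbtb46 had 0.67, with -0.30 and 0.05 within those sets. The lowest r over 16 arrays was that of Irf8 and Zeb2, at -0.55. Within arrays 3 and 4 this pair had -0.56, and within arrays 1 and 2 it had -0.32. Irf4 and Nfil3 also ran opposite, at -0.42 over all arrays, -0.74 within arrays 3 and 4 and -0.32 within arrays 1 and 2. Not every pair is named here.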

How the data were processed

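RNA from sorted cDC1 was read on 16 arrays, 1 sample per array, and groups and array numbers were taken from the sample titles. The deposited values are intensity readings, not logged, for 35556 probe sets, from 3.327 to 16300. Per the submitters' processing notes the authors used RMA, whose version is not stated in the sources used here. The method gives the arrays a shared distribution. Whether it compresses differences of dim genes such as Zeb2 was not measured here.

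The platform annotation gave 21789 probe sets a single symbol, 1621 more than 1 and 12146 no symbol, and 21698 matched the GRCm38.p6 gene table. The brightest probe set stood for each gene, which left 19938 genes. The deposited intensity was tested as log2(intensity + 1) with a pseudocount of 1, with two-sided tests from limma 3.58.1 under R 4.3.3. One fit held the 4 groups (12 residual degrees of freedom). A second held group and array number (9 residual degrees of freedom). P-values were adjusted with Benjamini-Hochberg over all genes at 0.05. Errors after ± are limma standard errors for differences and SDs for means. The fits were checked on simulated data. Promoters were RefSeq's. Figures used matplotlib 3.10.9 (Python 3.11.15).

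The members, the gene lists and the split of array numbers were chosen with earlier results of these data known. The 15 lists covered markers of cDC1, cDC2, plasmacytoid and migratory dendritic cells, B, T and NK cells, monocytes and macrophages, immediate early and digestion genes, and 6 groups of related factors. Some listed genes were not analysed here. Genes named from a list passed the test or had the smallest p, except those given for their level in the marker check (Xcr1, Clec9a, Snx22, Ppt1, Ccr7, Cd207, Clec4a4, Cd7, Itgam, Cd4 and Cd3g), which were chosen after their values were seen; the 3 genes most like each member were named among those with a mean log2 reading of at least 6. Alternatives covered scaling, pseudocount, dim genes, probe sets, the variance model, blocks, array sets and leaving out each array.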

Additional observations from a re-analysis of the deposited data

Results flagged for a closer look

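A reading far from the other 3 of its group was found in 2 of the 36 groups of 4 examined, 9 factors in 4 groups. Chance flags about 1 in 20 such groups. Zbtb46 read 127.5 on KO non-draining array 1, against 166, 170 and 172 on the other arrays of that group, and the gap to its nearest neighbour was 0.874 of the group's range. Spi1 read 848.9 on KO draining array 2, against 1039, 1076 and 1036 on the other arrays, with a gap of 0.842 of the range. KO draining array 2 is also the array that stood apart along the first principal component.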

How the results depend on the processing

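No factor passed the test between groups under any alternative run: 0 of 785 values under other settings and 0 of 720 with an array left out, with 0.224 as the smallest adjusted p. Batf3 stayed higher on arrays 3 and 4, and past the threshold, in all 23 alternatives run, at 0.47 to 0.58. Zeb2 did so in the 22 alternatives that held it, at 0.32 to 0.45. Its mean log2 reading of 5.66 was below the limit of 6, so it was not in the setting without dim genes. Zbtb46, at 0.22 to 0.31, passed in 5 of 23: the 4 left-out arrays named above and the setting without dim genes (adjusted p = 0.0400). Id2 passed without Het non-draining array 2 (0.27, adjusted p = 0.0410).

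Counts of genes called changed in few settings. KO against Het over both nodes gave 1 gene with dim genes left out, 1 with array number as a replicate block and 5 within arrays 3 and 4. Within arrays 3 and 4, KO against Het also gave 4 genes for the draining node and 2 for the other, and draining against non-draining gave 1 in KO cells. With an array left out, 1281 to 3019 genes were called between arrays 3 and 4 and arrays 1 and 2, and 277 to 1073 over the 4 numbers. That second count was 1073 without Het draining array 2, 336 without Het draining array 3, 1016 without KO draining array 1 and 314 without KO draining array 4. It was 388 and 306 without Het non-draining array 3 or 4, and 277, 365 and 327 without KO non-draining array 2, 3 or 4. The cause was not tested, and leaving out an array also leaves fewer samples. Deviations from group means correlated at -0.06 to 0.48 over 24 pairs of arrays with the same number, 18 of them over 0.1. Among arrays of other groups, 9 of 16 arrays correlated best with an array of their own number. Arrays with the same number thus resembled each other in part, and the reason was not tested. The replicate block gave Irf4 an adjusted p of 0.655 for KO against Het over both nodes. A random block of genotype and number pairs the nodes, as would be needed if equal numbers mark the same mouse. Its estimated correlation was 0.20. Under it Irf4 kept a difference of -0.41 over both nodes and did not pass. Nfil3 then had a limma adjusted p of 0.912 between the nodes of Het cells and 0.947 over both genotypes.

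Some small differences turned direction, all of them of values that did not pass the test, and the cause was not tested. A further quantile normalization gave 0.015 for Zbtb46 in KO against Het of the draining node, -0.015 for Nfil3 in the non-draining node, 0.016 for Spi1 in the interaction and -0.045 for Bcl6 between array sets. Centring arrays on their medians gave 0.0014 for Zbtb46 in KO against Het of the draining node and 0.0073 for Id2 in the non-draining node. Within arrays 1 and 2, KO against Het gave -0.13 for Batf3 and -0.24 for Nfil3 in the draining node, -0.091 and -0.16 in the non-draining node, and -0.11 and -0.20 over both. There, draining against non-draining gave 0.019 for Zbtb46 and -0.027 for Bcl6 in Het cells, and -0.11 for Irf8 and 0.039 for Zeb2 over both genotypes. The interaction gave -0.078 for Nfil3 and 0.11 for Spi1. Within arrays 3 and 4, KO against Het gave -0.0076 for Spi1 in the draining node, 0.032 for Id2 and -0.016 for Zbtb46 in the non-draining node, and 0.00056 for Id2 and -0.010 for Zbtb46 over both. There, draining against non-draining gave 0.042 for Irf8, 0.084 for Nfil3, 0.020 for Bcl6 and -0.088 for Irf4 in KO cells, 0.085 for Spi1 in Het cells, and 0.033 for Bcl6 and 0.021 for Spi1 over both genotypes. The interaction gave 0.011 for Zbtb46 and -0.26 for Irf4.

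With an array left out, 30 results turned in at least 1 setting. For KO against Het of the draining node the ranges were -0.11 to 0.044 for Irf8, -0.13 to 0.17 for Batf3, -0.13 to 0.056 for Id2, -0.097 to 0.098 for Zbtb46, -0.015 to 0.17 for Zeb2 and -0.0022 to 0.13 for Spi1. For the non-draining node they were -0.077 to 0.18 for Batf3, -0.10 to 0.10 for Id2, -0.040 to 0.062 for Nfil3 and -0.087 to 0.13 for Zbtb46. Over both nodes they were -0.044 to 0.11 for Batf3, -0.085 to 0.025 for Id2 and -0.045 to 0.063 for Zbtb46. For draining against non-draining they were -0.24 to 0.064 for Batf3, -0.14 to 0.061 for Zbtb46 and -0.11 to 0.0081 for Spi1 in KO cells, and -0.15 to 0.026 for Batf3, -0.12 to 0.084 for Zbtb46 and -0.020 to 0.051 for Bcl6 in Het cells. Over both genotypes they were -0.023 to 0.052 for Irf8, -0.15 to 0.00031 for Batf3, -0.082 to 0.026 for Zbtb46, -0.059 to 0.0039 for Bcl6 and -0.084 to 0.058 for Zeb2. For the interaction they were -0.18 to 0.13 for Batf3, -0.17 to 0.061 for Id2, -0.13 to 0.083 for Zbtb46, -0.092 to 0.20 for Irf4 and -0.067 to 0.066 for Spi1. Between array sets the range was -0.029 to 0.050 for Bcl6.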
